A study of Sus scrofa with 220 samples.

Results

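The genes described here encode the collagens, laminin chains, integrin chains and matrix metalloproteinases (MMP) of the pig embryo, with the tissue inhibitor of metalloproteinases TIMP1. They were chosen by name, as entries whose Ensembl pig symbol begins with COL and a digit, LAMA, LAMB, LAMC, ITGA, ITGB, MMP and a digit, or TIMP and a digit. Of 22840 gene entries, 77 with such a symbol were examined, and 55 of these had over 1 TPM in at least 3 of the 220 cells. TPM, a count of transcripts scaled to a fixed total, is a level corrected for transcript length and for the size of the library. In all, 14721 entries passed the same filter. The other 22 named entries reached that level in at most 2 cells each, among them COL4A3, COL4A4, COL4A5, LAMA3, ITGB2, ITGB6 and MMP9. The choice used no measured difference between cell types. COL4A1, COL18A1, LAMA5, ITGB5, TIMP2 and TIMP3 were not analysed here. One of the 55, ITGB1BP1, encodes a cytoplasmic protein that binds the tail of integrin beta 1 and is not an integrin itself.

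Collagen IV and laminin form separate networks in the basement membrane, the sheet of matrix on which epithelia rest. A laminin is a trimer of 1 alpha, 1 beta and 1 gamma chain, and in embryos of other mammals the extraembryonic endoderm, to which the hypoblast gives rise, is a known source of it. Integrins are cell surface receptors made of 1 alpha and 1 beta chain. ITGA5 with ITGB1 binds fibronectin, ITGAV pairs with several beta chains and binds matrix proteins that carry an RGD motif, ITGA6 and ITGA3 bind laminin, and ITGA1, ITGA2, ITGA10 and ITGA11 bind collagen. MMPs are secreted or membrane-bound proteases that cleave matrix, and TIMPs inhibit them.

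Cells were picked by hand from embryos of artificially inseminated pigs at 4 stages, and each cell was sequenced as its own Smart-seq2 library. No treatment was compared, but the preparation differed by stage. Morulae and early blastocysts had the zona pellucida removed with acid. Late blastocysts were exposed to antiserum and complement to lyse the trophectoderm, and epiblast and hypoblast of spherical embryos were separated by hand. Stage and preparation therefore cannot be told apart. Morulae (M) gave 47 cells, early blastocysts (EB) gave 24 cells of the inner cell mass (ICM) and 28 of the trophectoderm (TE), late blastocysts (LB) gave 25 cells of the epiblast (EPI) and 36 of the hypoblast (HYPO), and spherical embryos (Sph) gave 48 EPI and 12 HYPO cells. Since cells of 1 embryo are not independent, their counts were added up by embryo and by cell type. There were 8 such sums for M, 7 for ICM and 10 for TE, 4 for LB EPI and 5 for LB HYPO, and for the Sph stage 4 for EPI and 3 for HYPO. Levels per sum are given as CPM, counts scaled to library size, after TMM scaling over all 41 sums. CPM is not corrected for transcript length. CPM summed over several genes, and the parts of such a sum, therefore weigh long transcripts more. The ranking of the genes of the set by level is in TPM. No TE cells were studied at the LB and Sph stages. By the paper's assignment from Y-linked expression, most ICM cells were male and most TE cells female. Most LB HYPO cells were female and all Sph HYPO cells male, so sex and stage cannot be told apart in the hypoblast. LB EPI held nearly as many female as male cells, and most but not all Sph EPI cells were male. Sex was thus also unequal between EPI and HYPO of each stage. Sex was not part of the comparisons.

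Counts per cell ranged from 1012604 to 5696373, and a sum held 1 to 19 cells, with 6 sums of a single cell. Of the 12 Sph HYPO cells, 8 came from embryo F. The paper read the lineages from clustering of these same profiles with known markers. The marker levels below are thus no independent check of the cell types. That clustering used all expressed genes, so the genes of the set went into it as well. Their calls between cell types may therefore not be independent of the labels. The hypoblast marker PDGFRA had 39.9 to 839 CPM in LB HYPO and 76.5 to 138 CPM in Sph HYPO, against 0 to 33.2 CPM in LB EPI and 0 to 5.16 CPM in Sph EPI, and GATA4, another, was above 0 in all LB HYPO sums (7.16 to 17.5 CPM) and at 0 in all EPI sums of both stages. The 6 trophectoderm markers summed to a median of 43914 CPM in TE and 309 in ICM, but the single TE cell of embryo E6-ER held only 225 CPM, against its cell type. The same 6 genes reached a median of 29489 CPM in Sph HYPO (range 17980 to 49260), where KRT8 made up most of it. Of the others, GATA2 had at most 0.061 CPM and TFAP2A a median of 1.28 CPM, but GATA3 had 22.3 to 71.7 CPM and DAB2 149 to 433 CPM, against medians of 1.86 and 118 CPM in LB HYPO. Leukocyte markers (8 of 10 matched) summed to between 124 and 330 CPM in LB EPI and to at most 94.4 in every other cell type. LCP1 alone made up 108 to 327 CPM of this in LB EPI, where PTPRC, CSF1R and TYROBP were at 0, CD68, LYZ and FCER1G had medians of 0 and CD14 one of 1.76 CPM. Of the endothelial list, PECAM1 was found in ICM, LB HYPO and Sph HYPO at medians of 206, 213 and 103.3 CPM, while CDH5 had no count in any cell type. The part of these markers in the results below was not tested.

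**Figure D1:**
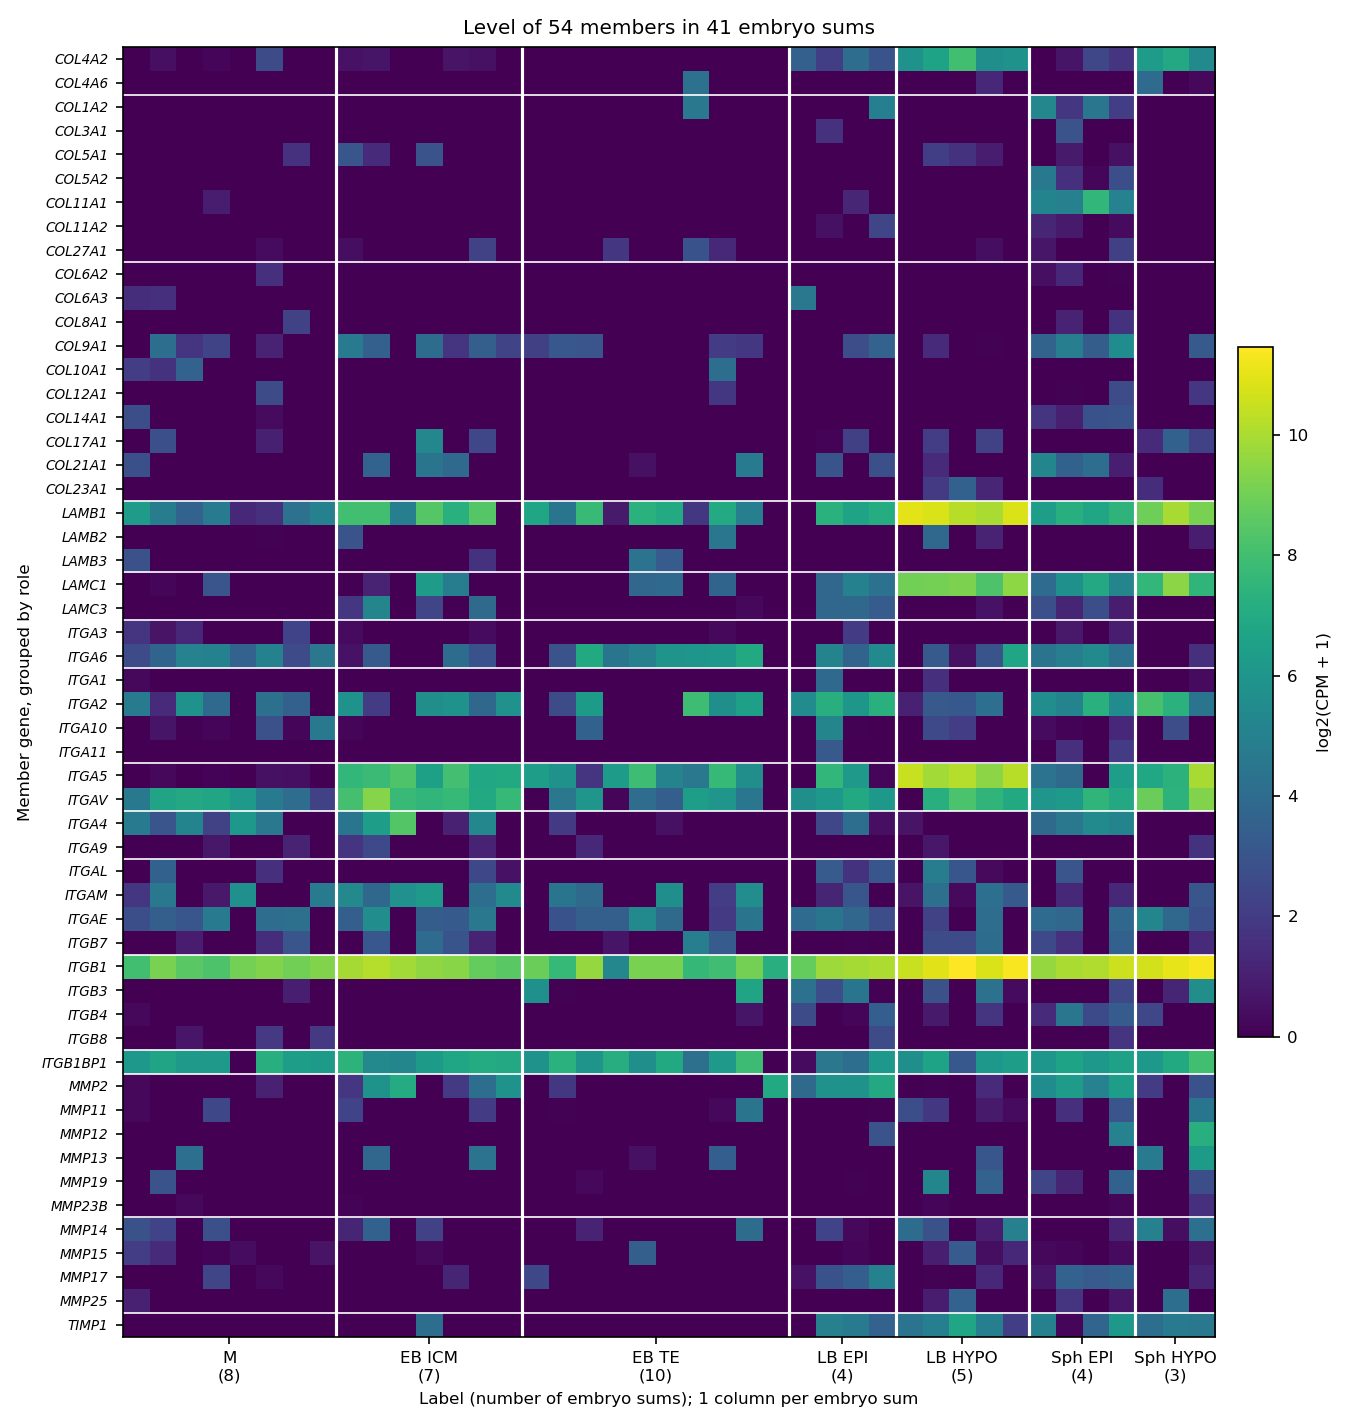
Level of 54 of the 55 genes (rows, grouped by role) as log2(CPM + 1) in each of the 41 embryo sums (columns, grouped by cell type, with the number of sums in brackets). ITGB1 is high in nearly all columns, LAMB1, LAMC1, ITGA5 and COL4A2 are brightest in the HYPO columns, and most collagens other than COL4A2 are near 0, least so in Sph EPI.

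The genes of the set were unevenly expressed. ITGB1, the beta chain shared by most matrix-binding integrins, was the most abundant in all 7 cell types and made up 35.4% (TE) to 59.4% (LB EPI) of their TPM. Its level was 896 ± 263 TPM in LB HYPO (SD, n = 5) and 837 ± 155 TPM in Sph HYPO (n = 3), against 208 ± 82.0 TPM in M (n = 8). By mean TPM over the 7 cell types, ITGB1 was followed by LAMB1 at 110.4, ITGA5 at 98.9, ITGB1BP1 at 84.9 and LAMC1 at 44.1 TPM. At the other end COL6A2, COL11A2 and ITGA3 had mean levels of 0.0536, 0.0762 and 0.0876 TPM. A cell of TE held a median of 5 of the 55 genes over 1 TPM, a cell of M 6, and a cell of Sph EPI or Sph HYPO 13.

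Summed over all 55 genes, the hypoblast stood above the other cell types. The sum had a median of 5795 CPM in LB HYPO (range 4290 to 6790) and 4616 CPM in Sph HYPO (3528 to 5625). The highest value in any other cell type was 2643 CPM, in an ICM sum, so no HYPO sum overlapped with another cell type. M had the lowest median, 738 CPM, with TE at 842, LB EPI at 1672, ICM at 1768 and Sph EPI at 1940 CPM. Laminin chains added a median of 2332 CPM in LB HYPO and 750.4 in Sph HYPO, against 163 in LB EPI and 205 in Sph EPI. The 19 collagens together made up at most 268 CPM in any sum, with the highest median, 131 CPM, in Sph EPI.

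**Figure D2:**
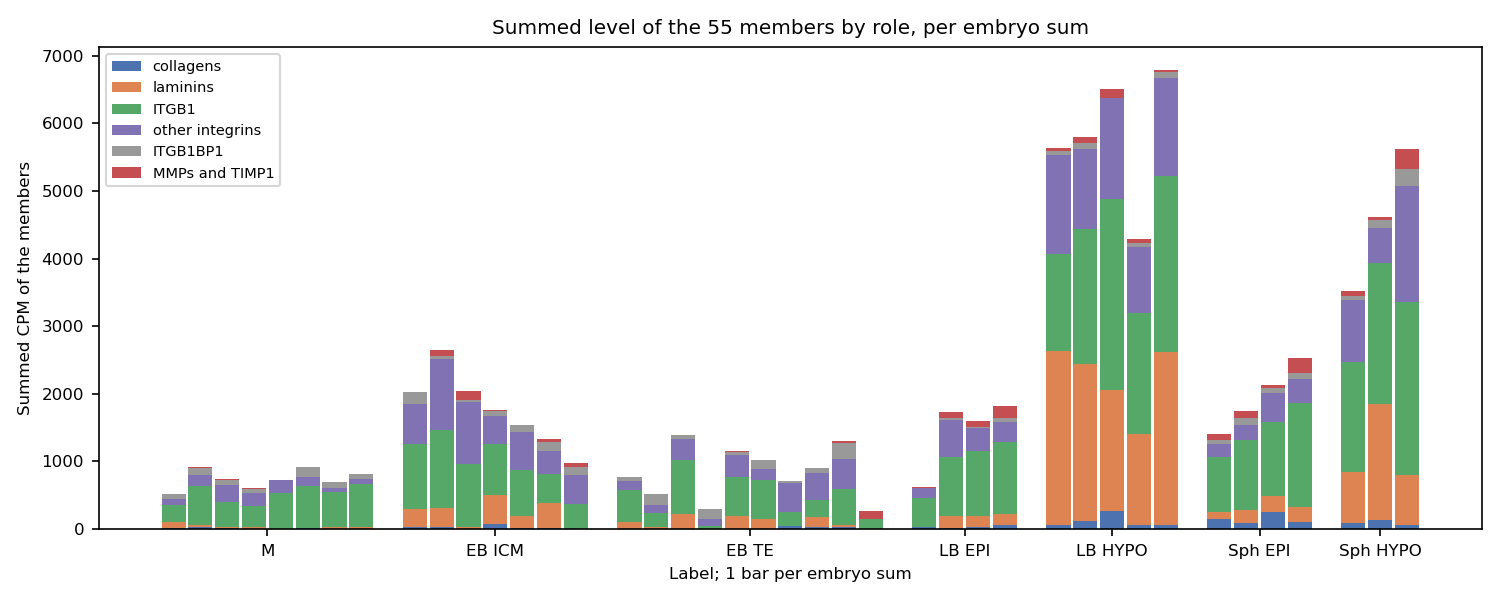
CPM summed over the 55 genes in each embryo sum (1 bar each, grouped by cell type on the horizontal axis), divided by role. Bars of LB HYPO (4290 to 6790 CPM) and Sph HYPO (3528 to 5625 CPM) stand above all others, mainly through ITGB1, the other integrins and the laminins.

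In late blastocysts, LAMC1 and ITGB1 were higher in HYPO than in EPI and MMP2 was higher in EPI. These were 3 of the 55 genes called at an adjusted p under 0.05, where 1.92% of all 14721 genes tested were called (1.03% higher in HYPO and 0.897% higher in EPI). In spherical embryos 2 were called, LAMB1 (higher in HYPO) and COL11A1 (higher in EPI), with 1.13% of all genes called (0.571% and 0.564%). The median log2 fold change of the set was 0 at both stages, beside 0 over all genes at LB and 0.57 at Sph. Of the 55, 27 had an unadjusted p under 0.05 at LB (20% of all genes) and 23 at Sph (15.2% of all genes). At both stages all these calls ended with the embryo as a replicate block in the model, which left 0 genes of the set called, and with all 7 cell types in 1 model, which also left 0. DESeq2 called 14 of the 55 at each stage and limma 5 at LB and 6 at Sph. Called by both of these tools but not by edgeR were COL4A2 and ITGA2 at LB and COL4A2, ITGA4, ITGA6 and MMP2 at Sph, while COL11A1 was called by limma and not by DESeq2. Adjusted p-values are those of edgeR where no tool is named. At LB 1 gene was called when the EPI sum of embryo AP or AQ or the HYPO sum of AM, AN or AP was left out. At Sph 0 were called without the EPI sum of C or E, 1 without that of D, and 4 without the HYPO sum of F, where ITGA4 and ITGA6 were added with adjusted p of 0.0471 and 0.0473.

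LAMC1, the gamma chain of the most widespread laminins (ENSSSCG00000015555), had 522, 529, 592, 302 and 734 CPM in the 5 LB HYPO sums and 0, 12.7, 31.7 and 18.5 CPM in the 4 LB EPI sums. The ranges did not overlap, and each HYPO sum was many times higher than any EPI sum. Overlap was not worked out for genes outside the set. Here and below, a lack of overlap between so few sums therefore has no background and is a description only. The log2 fold change, EPI minus HYPO, was -5.13 (standard error (SE) 1.0, adjusted p = 0.0193). In the cells of pools 1 to 4 it was -3.92 (adjusted p = 0.113) and in those of pools 5 to 8 it was -7.72 (adjusted p = 0.0266), and without the LB EPI sum of embryo AQ the adjusted p was 0.056. In spherical embryos LAMC1 had 191, 716 and 179 CPM in HYPO and 14.9, 52.6, 119 and 35.6 CPM in EPI, again with no overlap, but the log2 fold change of -2.65 (SE 0.78) did not pass the test (adjusted p = 0.163). Over 1 TPM it was present in 35 of 36 LB HYPO cells (97.2%, exact 95% interval 85.5 to 99.9%) and in 12 of 12 Sph HYPO cells, against 28.0% of LB EPI and 66.7% of Sph EPI cells.

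LAMB1 (ENSSSCG00000015444), the beta chain that joins LAMC1 in laminins of the early embryo, had 485, 999 and 564 CPM in the Sph HYPO sums and 84.5, 144, 107 and 176 CPM in Sph EPI. The sums did not overlap, and the log2 fold change was -2.39 (SE 0.42, adjusted p = 0.0215). It was -1.99 in pools 1 to 4 (adjusted p = 0.156) and -2.62 in pools 5 to 8 (adjusted p = 0.0407), and the call ended without the EPI sum of embryo C, D or E or the HYPO sum of embryo E, with adjusted p from 0.0534 to 0.0816. The contrast at LB was wider in level. LB HYPO had 2055, 1790.1, 1199, 1039 and 1819 CPM, and LB EPI had 0, 159.5, 94.96 and 136 CPM. The EPI sum at 0, that of embryo AN, widened the spread, and the log2 fold change of -4.07 (SE 1.06) had an adjusted p of 0.077. Without it the log2 fold change was -3.52 with an adjusted p of 0.000729. LAMB1 was also the gene of the set with the lowest p among those higher in LB HYPO than in Sph HYPO, where the log2 fold change was 1.17 (SE 0.34, adjusted p = 0.341).

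COL4A2 (ENSSSCG00000009545), a chain of collagen IV, followed the same cell types at a lower level (mean over the 7 cell types 8.03 TPM, against 44.1 TPM for LAMC1). LB HYPO had 57.6, 99.9, 255, 51.3 and 58.2 CPM and Sph HYPO 77.0, 118 and 41.97 CPM, whereas LB EPI had 10.5, 3.33, 16.3 and 6.80 CPM and Sph EPI 0, 0.583, 4.38 and 2.39 CPM. No EPI sum reached the lowest HYPO sum of its stage. The differences missed the threshold with edgeR, although DESeq2 and limma called both, with -3.54 (SE 0.86, adjusted p = 0.0568) at LB and -5.38 (SE 1.67, adjusted p = 0.184) at Sph. Between ICM, where the highest of 7 sums was 0.555 CPM, and LB HYPO the log2 fold change was -8.32 (SE 1.15, adjusted p = 0.000491). This call was kept under every alternative that was run, with the highest adjusted p at 0.0161. COL4A2 had no count in any of the 10 TE sums. It was found over 1 TPM in 86.1% of LB HYPO cells and in 12 of 12 Sph HYPO cells, in 28.0% of LB EPI cells, and in 0 of 28 TE cells, where 3 counts set the limit at 10.7%.

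**Figure D3:**
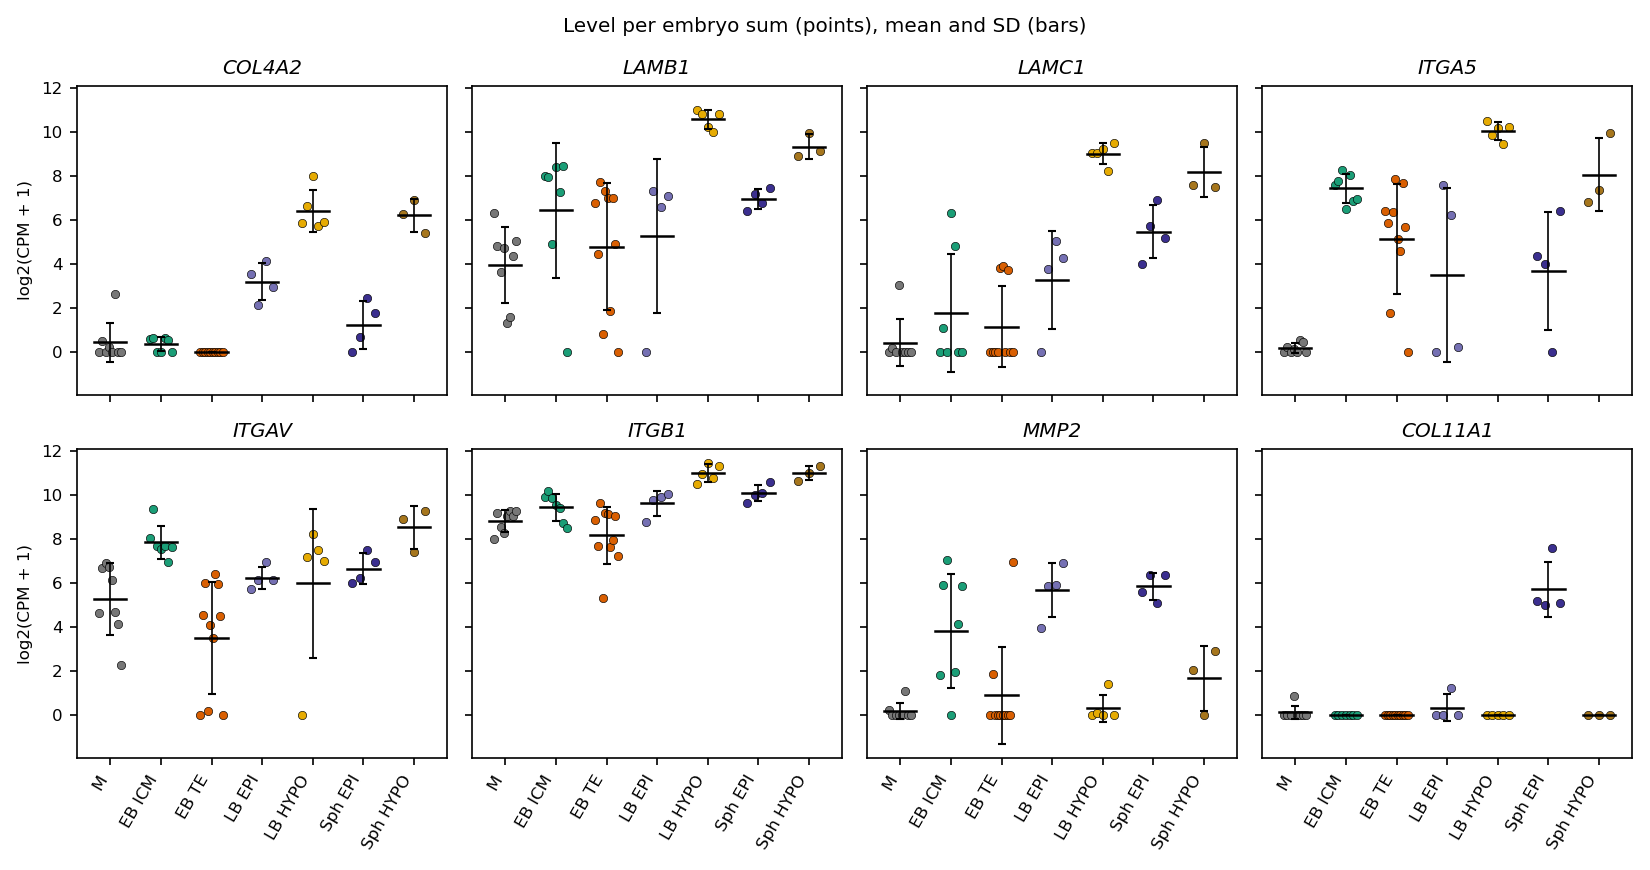
Level of 8 genes as log2(CPM + 1) in each embryo sum (points) by cell type, with the mean (horizontal bar) and SD (vertical bar). COL4A2, LAMB1, LAMC1 and ITGB1 are highest in the HYPO groups, ITGA5 is near 0 in all 8 M sums and highest in LB HYPO, MMP2 is high in the EPI groups and near 0 in LB HYPO, and COL11A1 is high in Sph EPI.

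COL4A2, LAMB1 and LAMC1 were found together in single cells of the hypoblast. All 3 exceeded 1 TPM in 31 of 36 LB HYPO cells (86.1%, exact 95% interval 70.5 to 95.3%) and in 12 of 12 Sph HYPO cells (73.5 to 100%). The corresponding shares were 2 of 25 cells in LB EPI (8.0%) and 4 of 48 in Sph EPI (8.33%), and 0 of 47 in M, 0 of 24 in ICM and 0 of 28 in TE, for which 3 counts set limits of 6.38%, 12.5% and 10.7%. Cells of 1 embryo are not independent, and these intervals and limits cover counting error only.

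**Figure D4:**
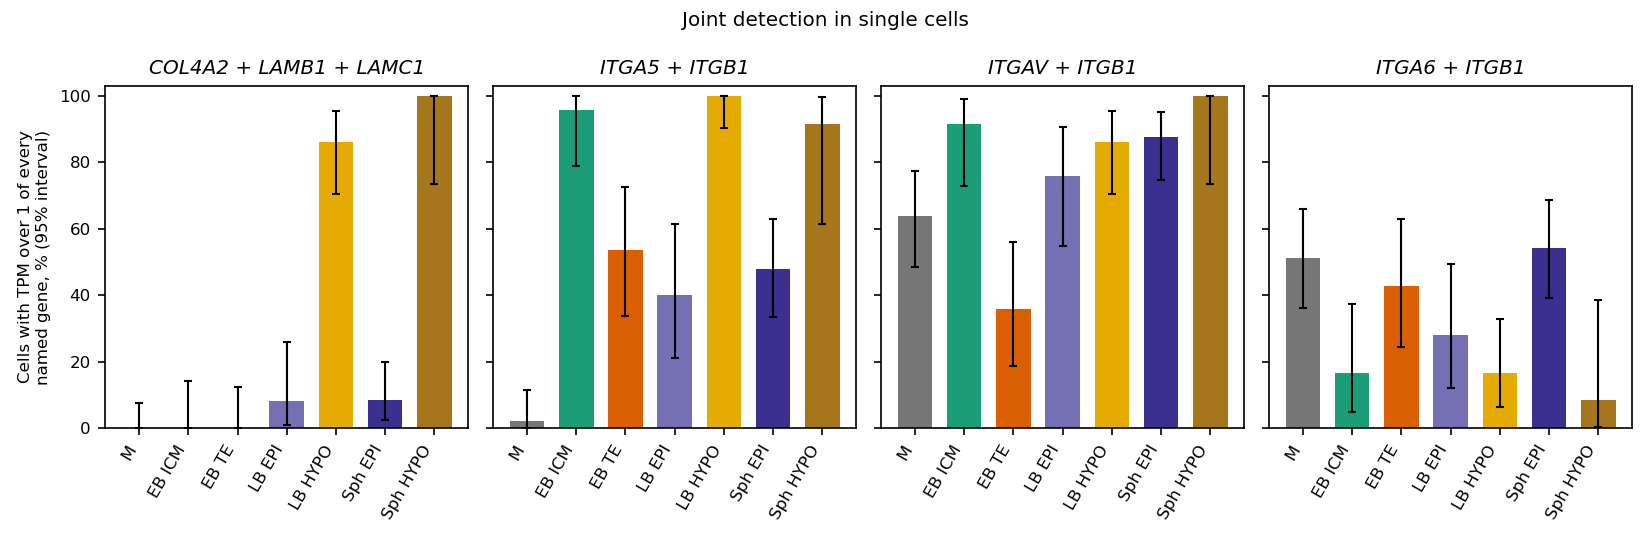
Share of cells (%, with exact 95% intervals) in which every named gene exceeded 1 TPM, by cell type. The trio COL4A2, LAMB1 and LAMC1 is found together in 86.1% of LB HYPO and 100% of Sph HYPO cells and in at most 8.33% of the others, while ITGA5 with ITGB1 is found in 2.13% of M and 95.8% of ICM cells.

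LAMC3, another gamma chain, was found over 1 TPM in 10 of 25 LB EPI and 7 of 24 ICM cells and in at most 12.5% elsewhere. It had counts in 4 of 7 ICM sums (2.51, 36.1, 4.32 and 14.4 CPM) and in none of the 8 M sums. This was called, with a level in ICM at least 332-fold that given by 3 counts over all M sums (adjusted p = 0.0488), although 3 ICM sums were at 0 like those of M. The ICM sum of embryo AC held 63% of the CPM of LAMC3 in ICM, and without it the level was at least 122-fold (adjusted p = 0.0894). The call was kept in 3 of 15 fits that left out 1 sum, those without AD, AF or AI of ICM, and it was lost with limma (adjusted p = 0.166). The adjusted p was 0.217 in pools 1 to 4 and 0.0731 in pools 5 to 8. LAMC3 was also the ICM gene of lowest p against TE, where a single count was found over 10 sums (adjusted p = 0.0535). In LB EPI it had 0, 12.7, 13.3 and 9.05 CPM, and in LB HYPO 1 of 5 sums was above 0, at 0.476 CPM (adjusted p = 0.229). LAMB2 had at most 21.4 CPM in any sum and LAMB3 at most 19.9 CPM, both in TE.

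No laminin alpha chain was among the 55 genes, and not every alpha chain was examined. The authors had added 16 entries of their own to the annotation. Of these, 1 was for LAMA1, the alpha chain of the laminin of the early embryo. It was above 1 TPM in 31 of 36 LB HYPO cells, in 1 of 48 Sph EPI cells and 1 of 12 Sph HYPO cells, and in no cell of the other 4 types. The 5 LB HYPO sums ranged from 11.7 to 34.9 CPM with a median of 18.9 CPM, against 0 in all LB EPI and ICM sums. LAMA1 was called between LB EPI and LB HYPO (adjusted p = 0.026) and between ICM and LB HYPO (adjusted p = 0.0121), but not between LB HYPO and Sph HYPO (adjusted p = 0.534). LAMA1, LAMB1 and LAMC1 were found together in 31 of 36 LB HYPO cells (86.1%) and in 1 of 12 Sph HYPO cells. All 957 counts above 0 of the added entries were even numbers, against 49.2% of the counts of the 55 genes, so their levels cannot be set beside those of the other entries.

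Most collagens other than COL4A2 were found in a minority of the cells of any type. The exceptions were COL9A1 and COL11A1, found in 66.7% and 60.4% of Sph EPI cells. COL11A1 (ENSSSCG00000006857), a minor chain of cartilage-type fibrils, had 35.6, 30.9, 191 and 33.4 CPM in the 4 Sph EPI sums and 0 in all 3 Sph HYPO sums, all 5 LB HYPO sums, all 7 ICM sums and all 10 TE sums. The Sph EPI sums all lay above 1.35 CPM, the highest value elsewhere. The Sph EPI level was at least 369-fold that given by 3 counts over the Sph HYPO sums (adjusted p = 0.0292), with an adjusted p of 0.217 in pools 1 to 4 and 0.0824 in pools 5 to 8. Without the Sph EPI sum of embryo C it was 0.0532, and without that of embryo E, the highest, it was 0.105. In single cells COL11A1 was found in 60.4% of Sph EPI cells and in 4.0% of LB EPI cells. Between LB EPI and Sph EPI the log2 fold change was -7.58 (SE 1.78) and did not pass the test (adjusted p = 0.15).

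Of the other collagens none was called by edgeR between Sph EPI and Sph HYPO, while DESeq2 called COL1A2, COL21A1, COL5A2 and COL14A1 (higher in EPI) and COL17A1 (higher in HYPO) beside COL4A2. COL1A2 had 38.6, 2.50, 21.9 and 3.25 CPM in Sph EPI and 0 in Sph HYPO (adjusted p = 0.15), and in LB EPI only the sum of embryo AQ was above 0, at 29.8 CPM. COL21A1, which is not fibril-forming, had 0.953 to 37.4 CPM in Sph EPI and 0 in Sph HYPO (adjusted p = 0.151). COL5A2 and COL14A1 were at 0 in all LB EPI sums and at 0.107 to 23.7 and 1.04 to 6.94 CPM in Sph EPI, with adjusted p of 0.267 and 0.252 for the stage difference. Sph EPI was the cell type with the highest mean TPM for 10 of the 19 collagens. No such share was worked out for genes outside the set, so this count has no background. The filter of 3 cells also favours Sph EPI, which had the most cells (48) and the highest median of genes per cell (6558). COL5A2 passed it through Sph EPI alone (5 of 5 cells over 1 TPM) and COL14A1 mainly so (9 of 10). The count is therefore no evidence about collagens in Sph EPI. COL3A1, COL6A2 and COL12A1 were among the 10 but were each found in only 2 of 48 Sph EPI cells. Embryo D held 99.6% of the Sph EPI CPM of COL3A1, and embryo F 99.2% of that of COL12A1. The rest of the 10 were found in 8.33% (COL8A1) to 66.7% (COL9A1) of Sph EPI cells. COL9A1, found in 66.7% of Sph EPI and 45.8% of ICM cells, was the most often detected collagen in both. COL17A1, a collagen that spans the membrane of epithelial cells, was at 0 in Sph EPI and at 1.58, 10.97 and 3.599 CPM in Sph HYPO (adjusted p = 0.158). COL10A1, COL12A1, COL23A1, COL27A1, COL3A1, COL4A6, COL5A1, COL6A2, COL6A3, COL8A1 and COL11A2 were each found in at most 22.2% of the cells of any type.

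ITGA5 (ENSSSCG00000000293), the alpha chain of the fibronectin receptor, rose from M to ICM and again from ICM to LB HYPO. Its 8 M sums lay between 0 and 0.448 CPM, with a median of 0.0407 CPM, and its 7 ICM sums between 90.8 and 313 CPM, with a median of 191 CPM. Every ICM sum lay far above the highest M sum. The log2 fold change, M minus ICM, was -10.25 (SE 0.88, adjusted p = 1.28e-06). It was called under every alternative that was run, with -10.43 in pools 1 to 4 and -9.81 in pools 5 to 8. ITGA5 was found over 1 TPM in 1 of 47 M cells (2.13%, exact 95% interval 0.0539 to 11.3%) and in 23 of 24 ICM cells (95.8%, 78.9 to 99.9%), and together with ITGB1 in the same numbers of cells.

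In LB HYPO, ITGA5 was higher still, at 1463, 949, 1164, 699.8 and 1203 CPM. All 5 sums lay above the highest ICM sum, and the log2 fold change, ICM minus LB HYPO, was -2.54 (SE 0.33, adjusted p = 0.0003). It was -2.38 in pools 1 to 4 and -2.47 in pools 5 to 8, called in both, but the adjusted p was 0.179 with all 7 cell types in 1 model. LB EPI was divided, with 193 and 73.1 CPM in embryos AO and AP and 0 and 0.161 CPM in AN and AQ. None of these reached LB HYPO, yet with this spread the log2 fold change of -4.08 (SE 1.46) did not pass the test (adjusted p = 0.206). Sph EPI had 19.7, 14.7, 0 and 85.0 CPM and Sph HYPO 113, 164 and 987 CPM, which again did not overlap (adjusted p = 0.271). The highest Sph HYPO sum, that of embryo F, lay in the range of LB HYPO and the other 2 lay far below it. The log2 fold change between LB HYPO and Sph HYPO was 1.35 (SE 0.59, adjusted p = 0.484), and without embryo F in Sph HYPO it was 2.94 (adjusted p = 0.00967). In TE, ITGA5 ranged from 0 to 235 CPM with a median of 53.0 CPM and overlapped with ICM (adjusted p = 0.512).

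ITGAV (ENSSSCG00000016027), the other RGD-binding alpha chain, was present from the morula on. It had 3.75 to 121 CPM in M (median 47.2) and 124 to 657 CPM in ICM (median 207). The lowest ICM sum was above the highest M sum, and the log2 fold change, M minus ICM, was -2.24 (SE 0.59, adjusted p = 0.0488). The adjusted p was 0.391 in pools 1 to 4 and 0.200 in pools 5 to 8, with changes of -1.90 and -2.03. The call was also lost with sums of at least 2 cells (adjusted p = 0.0684), with all 7 cell types in 1 model (adjusted p = 0.153) and in 14 of 15 fits that left out 1 sum, all but that without embryo T of M, with adjusted p up to 0.114. DESeq2 and limma both called it. TE had 0 to 83.1 CPM (median 18.8), also below all ICM sums (log2 fold change 3.27, SE 1.0, adjusted p = 0.113). LB EPI had 51.8, 69.1, 122 and 68.5 CPM, below ICM (1.72, SE 0.50, adjusted p = 0.0852). In LB HYPO the single cell of embryo AL had 0 CPM and the other 4 sums 126 to 299 CPM. Sph HYPO had 478, 172 and 632 CPM and Sph EPI 62.5 to 181 CPM, with 1 EPI sum above the lowest HYPO sum (adjusted p = 0.166).

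ITGB1 (ENSSSCG00000011101) was found in all cells of 6 types and in 71.4% of TE cells. LB EPI had 433, 875, 968 and 1061 CPM and LB HYPO 1441, 1996, 2823, 1791 and 2611 CPM. All HYPO sums were above all EPI sums, with a log2 fold change of -1.40 (SE 0.29, adjusted p = 0.026). It was -1.36 in pools 1 to 4 (adjusted p = 0.142) and -1.40 in pools 5 to 8 (adjusted p = 0.153), and 5 of the 9 fits that left out 1 sum lost the call (without AN or AP of EPI or AM, AN or AP of HYPO, adjusted p up to 0.0679). Against ICM, which had 369 to 1159 CPM with a median of 744 CPM, LB HYPO was again higher in all sums (ICM minus LB HYPO -1.49, SE 0.27, adjusted p = 0.00632, with 0.0593 in pools 1 to 4 and 0.209 in pools 5 to 8). Sph EPI had 814, 1037, 1106 and 1545 CPM and Sph HYPO 1625, 2092 and 2561 CPM (log2 fold change -0.87, SE 0.27, adjusted p = 0.186). LB HYPO and Sph HYPO differed by -0.02 (SE 0.27).

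Of the laminin-binding alpha chains, ITGA6 and ITGA3, edgeR called 0 in any comparison of a pair of cell types over all sums. ITGA6 had its highest median in TE, 45 CPM (range 0 to 125), and its lowest in Sph HYPO, with 0, 0 and 1.89 CPM. Sph EPI had 18.7 to 42.9 CPM, above all Sph HYPO sums (log2 fold change 5.35, SE 1.97, adjusted p = 0.258), and ICM lay below TE in its median (0.489 CPM, adjusted p = 0.209). ITGA6 and ITGB1 were found together in 24 of 47 M cells and 26 of 48 Sph EPI cells, but in 6 of 36 LB HYPO cells and 1 of 12 Sph HYPO cells. ITGB4, the partner of ITGA6 in hemidesmosomes, had no count in ICM and 1.70, 21.9, 5.02 and 9.09 CPM in Sph EPI. It was found in 39.6% of Sph EPI cells, and with ITGA6 in 11 of 48 (22.9%). Between ICM and LB EPI, where 3 of 4 sums were above 0 at 0.118 to 9.59 CPM, ITGB4 had an adjusted p of 0.123. ITGA3 was found in at most 8.51% of the cells of any type.

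Of the collagen-binding chains, ITGA2 was the most abundant. LB EPI had 45.7, 148, 66.7 and 156 CPM and LB HYPO 1.05, 8.09, 8.02, 17.02 and 0 CPM, with no overlap (log2 fold change 3.86, SE 1.18, adjusted p = 0.145). In Sph HYPO the values were 279, 160.4 and 20.01 CPM, all above LB HYPO (LB HYPO minus Sph HYPO -4.59, SE 1.38, adjusted p = 0.358). Sph EPI had 35.2 to 153 CPM, inside the range of Sph HYPO. The difference between EPI and HYPO was thus of opposite sign at the 2 stages, 3.86 at LB and -1.08 at Sph, and the test of this change gave -5.02 (SE 1.56, adjusted p = 0.334). ITGA1, ITGA10 and ITGA11 were each found in at most 8.33% of the cells of any type. ITGA10 was among the 3 genes of lowest p in M against ICM (306 counts against 2, adjusted p = 0.0891) and in ICM against LB EPI (adjusted p = 0.0994), but its level came mainly from embryo Y in M (24.2 CPM) and embryo AO in LB EPI (36.8 CPM).

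ITGA4 binds fibronectin and VCAM1. Between no pair of cell types was it called by edgeR with all sums of the pair, and no others, in the model. In Sph EPI it had 14.8, 23.4, 43.6 and 34.8 CPM and in Sph HYPO 0 in all sums, a level at least 210.2-fold that of 3 counts (adjusted p = 0.0651). LB HYPO held 1 count over 5 sums. ICM had 0 to 333 CPM with a median of 21 CPM, and the single cell of embryo AD held 69.6% of the CPM of ITGA4 in ICM. With 1 count in LB HYPO against 2711 in ICM, the ratio was 2918 (exact counting interval 523 to 115316, adjusted p = 0.0517). TE had 0 CPM in 8 of 10 sums and at most 2.89 CPM (log2 fold change 7.56, SE 1.84, adjusted p = 0.0565). In cells ITGA4 was found in 41.7% of Sph EPI and 37.5% of ICM cells and in 0 of 36 LB HYPO cells (limit 8.33%). M and LB EPI lay between, with 25.5% of M cells (sums of 0 to 67.3 CPM) and 20% of LB EPI cells (0 to 16.8 CPM). ITGA9 was found in at most 16.7% of the cells of any type, and it was at 0 in LB EPI against 94 counts in ICM (adjusted p = 0.173).

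Chains known from leukocytes were also present. ITGAE was found in 32.1% to 54.2% of the cells of every type. ITGAM was found in 41.7% of ICM and 30.6% of LB HYPO cells and in at most 17.9% elsewhere, whereas its usual partner ITGB2 did not pass the filter. It had 0 to 69.6 CPM in ICM and 0.217 to 17.7 CPM in LB HYPO, and up to 53.2 CPM in M and 51.9 CPM in TE. ITGAL was found in at most 13.9% of cells and ITGB7 in at most 22.2%. LCP1, the leukocyte marker with the highest CPM, was highest in LB EPI (108 to 327 CPM). There ITGAM had 0 to 7.47 CPM, ITGAL 0 to 8.72 CPM and ITGB7 0 to 0.0588 CPM. FCER1G had 0 to 58.7 CPM in LB HYPO, with a median of 14.1 CPM, and PTPRC was at 0 in all 7 cell types. The Ensembl entry of ITGB3 had no count in ICM, 808 counts in TE of which almost all lay in embryos AA (52.8 CPM) and AI (102.9 CPM), and 0.0536 to 21 CPM in LB EPI. Its adjusted p was 0.113 for ICM against TE and 0.0652 for ICM against LB EPI. ITGB3 is uncertain, because the authors added a second entry for it that had counts in 211 cells, against 27 cells for the Ensembl entry. ITGB8 was found in at most 6.38% of the cells of any type.

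MMP2 (ENSSSCG00000002829), the gelatinase that also cleaves collagen IV, had the reverse pattern to the basement membrane genes. LB EPI had 14.7, 58.0, 58.8 and 121 CPM and LB HYPO 0, 0.0419, 0, 1.63 and 0 CPM. The lowest EPI sum was above the highest HYPO sum, and the log2 fold change was 7.23 (SE 1.66, adjusted p = 0.0425). It was 6.69 in pools 1 to 4 (adjusted p = 0.202) and 9.32 in pools 5 to 8 (adjusted p = 0.124), and with sums of at least 2 cells the adjusted p was 0.0725. Of the 9 fits that left out 1 sum, 7 lost the call, those without AO, AP or AQ of EPI or AL, AM, AN or AP of HYPO, with adjusted p up to 0.156. In Sph EPI it had 47.2, 81.1, 33.1 and 81.3 CPM and in Sph HYPO 3.16, 0 and 6.47 CPM (log2 fold change 4.23, SE 1.49, adjusted p = 0.235). MMP2 was found in 80.0% of LB EPI and 95.8% of Sph EPI cells, in 2.78% of LB HYPO cells and in 25% of Sph HYPO cells.

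Earlier, MMP2 had 0 CPM in 6 of 8 M sums and at most 1.09 CPM, and 2.51, 59.0, 130.2, 0, 2.89, 16.7 and 56.7 CPM in ICM. The ICM sum of embryo AE at 0 overlapped with M, and the log2 fold change, M minus ICM, was -7.84 (SE 1.76, adjusted p = 0.0198). It was -11.11 in pools 1 to 4 (adjusted p = 0.0652) and -5.92 in pools 5 to 8 (adjusted p = 0.200), and with sums of at least 2 cells the adjusted p was 0.0773, while all 15 fits that left out 1 sum kept the call. In TE it was above 0 in 2 of 10 sums, at 2.61 CPM in embryo AB and at 123 CPM in the single cell of embryo E6-ER, the cell whose trophectoderm markers were low. ICM and LB HYPO differed by 6.64 (SE 2.05, adjusted p = 0.119).

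The other proteases were detected in fewer cells. MMP14, the membrane-anchored activator of MMP2, was found in 41.7% of Sph HYPO cells and at most 19.4% elsewhere, and together with MMP2 in 2 of 25 LB EPI cells and 2 of 48 Sph EPI cells. MMP17, anchored by a lipid, was found in 48% of LB EPI and 43.8% of Sph EPI cells and in at most 16.7% elsewhere. MMP12 and MMP13 were found in 33.3% and 50% of Sph HYPO cells, but for MMP12 all of this came from embryo F (149 CPM, with 0 in the other 2 sums). MMP13 had 24.5, 0 and 75.7 CPM in Sph HYPO and 1 count over the 4 Sph EPI sums (adjusted p = 0.0745). MMP12 had no count in LB HYPO (adjusted p = 0.349 against Sph HYPO). MMP19 was found in 22.2% of LB HYPO and 20.8% of Sph EPI cells. MMP11, MMP15, MMP23B and MMP25 were found in at most 41.7%, 11.1%, 25% and 16.7% of the cells of any type. TIMP1 appeared late, with 0 in all 8 M and 10 TE sums and a single ICM sum above 0 (16.7 CPM). It had 3.37 to 109 CPM in LB HYPO, 0 to 30.9 in LB EPI, 0.167 to 68.0 in Sph EPI and 16.6 to 25.2 CPM in Sph HYPO, and EPI and HYPO overlapped at both stages (adjusted p = 0.739 at LB and 0.972 at Sph).

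**Figure D5:**
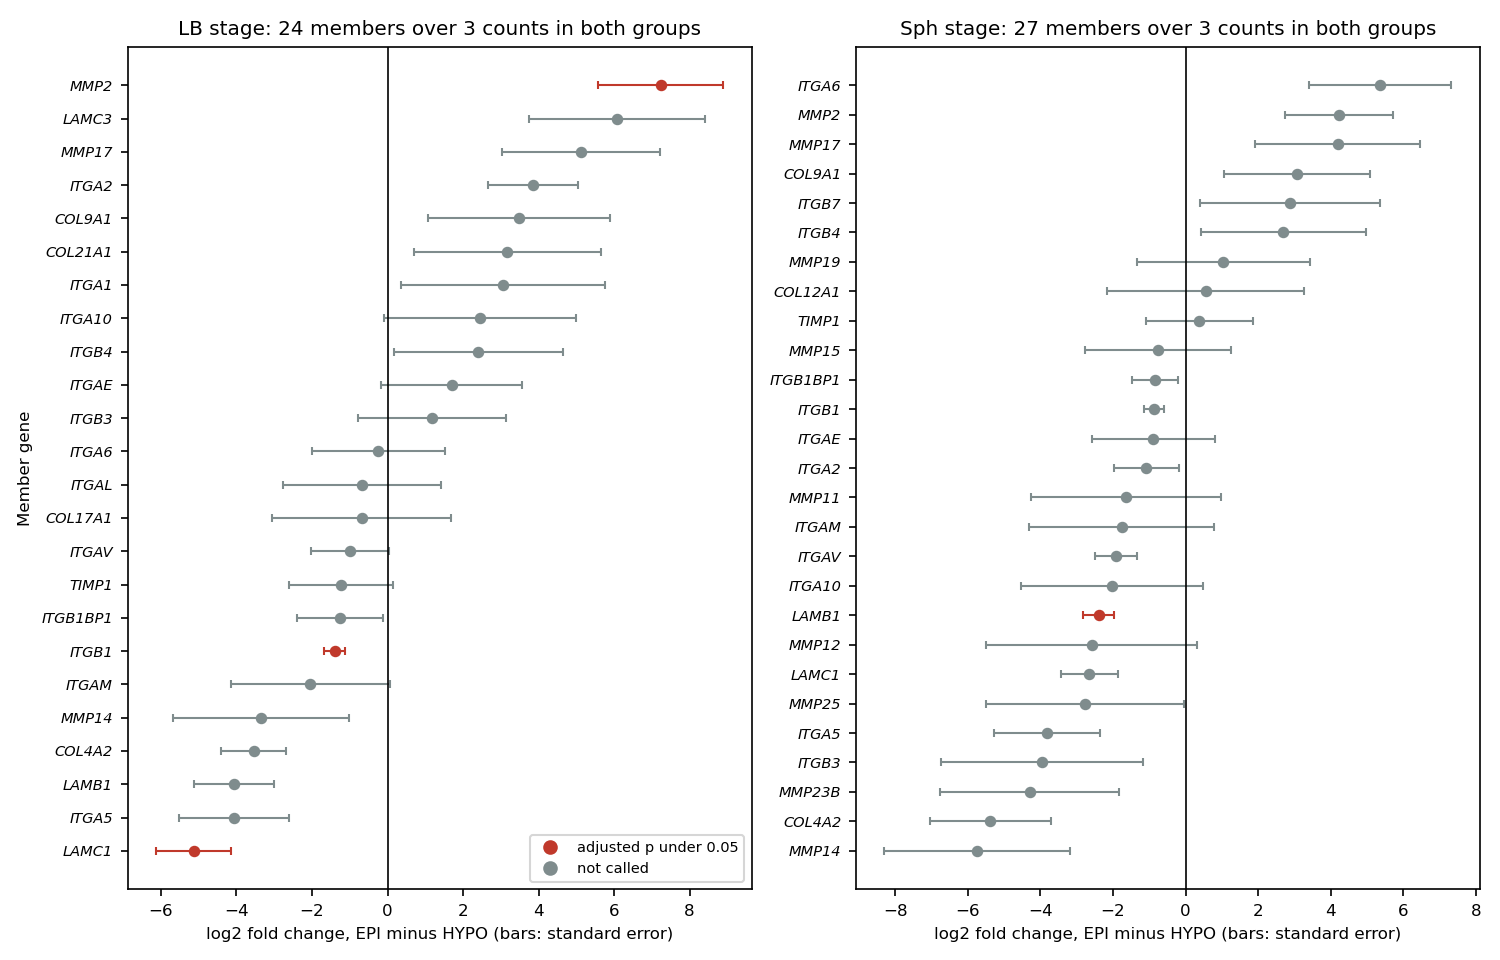
Log2 fold change between EPI and HYPO (EPI minus HYPO on the horizontal axis, bars are standard errors) for genes with over 3 counts in both groups, 24 in late blastocysts (left) and 27 in spherical embryos (right), with called genes in red. LAMC1, LAMB1, COL4A2 and ITGA5 lie left of 0 at both stages and MMP2 right of it, and COL11A1, which had no count in Sph HYPO, is not drawn.

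Seen by comparison, 4 of the 55 genes were called between M and ICM, where 2.45% of all genes were called. All 4, ITGA5, MMP2, LAMC3 and ITGAV, were higher in ICM, as were 1.48% of all genes, with 22 at an unadjusted p under 0.05 (23.4% of all genes). ITGA5 and MMP2 were called in all 15 fits that left out 1 sum, and in 11 of these they were the 2 called. The genes of lowest p that were higher in M, ITGA10, COL10A1 and ITGB8, had adjusted p of 0.0891, 0.108 and 0.117. Between ICM and LB HYPO 3 were called, ITGA5, COL4A2 and ITGB1, all higher in LB HYPO, with 2.1% of all genes called (1.16% higher in LB HYPO) and 20 at an unadjusted p under 0.05 (22.5% of all genes). Without the ICM sum of embryo AE 6 were called (LAMC1, TIMP1 and ITGA4 were added) and without that of AI 5 (LAMB1 and ITGA4 were added). Those of lowest p higher in ICM were ITGA4, MMP2 and COL9A1, the last with an adjusted p of 0.176. Between ICM and LB EPI edgeR called 0 of the 55, with 2.91% of all genes called. There, 21 had an unadjusted p under 0.05 (22.6% of all genes), and DESeq2 called 6 and limma 4. ITGAV, ITGB7 and COL5A1 had the lowest p of those higher in ICM, the last 2 with adjusted p of 0.163 and 0.17.

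Between ICM and TE edgeR also called 0 of the 55, with 0.754% of all genes called. Of the 55, 17 had an unadjusted p under 0.05 (18.9% of all genes), and DESeq2 called 5 and limma 1. LAMC3, ITGA4 and COL4A2 had the lowest p of those higher in ICM, the last with 22 counts in ICM, 0 in TE and an adjusted p of 0.11. Of those higher in TE, ITGB3, COL10A1 and COL1A2 had the lowest p, and COL10A1 and COL1A2 were each held by 1 of 10 TE sums (adjusted p = 0.127). LAMC3 was called without the ICM sum of embryo AD, and ITGA4 without the ICM sum of AE or AI or the TE sum of AB. With all 7 cell types in 1 model 7 were called, of which LAMC3, COL5A1, COL17A1, TIMP1, ITGA4 and ITGAV were higher in ICM and ITGB3 in TE. Within the epiblast, LB EPI against Sph EPI, edgeR called 0 of the 55 (0.156% of all genes called), with 13 at an unadjusted p under 0.05 (13.6%), 4 called by DESeq2 and 1 by limma. COL6A3, COL17A1 and ITGA1 had the lowest p of those higher in LB EPI, each with an adjusted p of 0.365 or more. Within the hypoblast, LB HYPO against Sph HYPO, edgeR called 0 (0.163% of all genes called), with 7 at an unadjusted p under 0.05 (9.52%), 1 called by DESeq2 and 0 by limma. Without embryo F in Sph HYPO edgeR called 1, ITGA5. Those of lowest p were LAMB1, ITGA5 and ITGAL higher in LB HYPO, the last with an adjusted p of 0.4928, and MMP12 and ITGA2 among those higher in Sph HYPO.

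Whether EPI and HYPO differed to another extent at LB than at Sph was tested directly, and edgeR called 0 of the 55 genes (0.0408% of all genes called), with 8 at an unadjusted p under 0.05 (10.8%), 2 called by DESeq2 and 1 by limma. The change was 1.59 for LAMB1 (SE 1.21), 2.41 for LAMC1 (SE 1.28), -1.93 for COL4A2 (SE 1.59), 0.45 for ITGB1 (SE 0.41) and -3.07 for MMP2 (SE 1.94). COL5A1, ITGB7, COL27A1, ITGA2 and COL17A1 were among the genes of lowest p in this test, with adjusted p from 0.334 to 0.366. A test of any difference among the 7 cell types gave 40 of the 55 genes, or 72.7%, with 37.7% of all genes called. On simulated counts this test called many unchanged genes, and DESeq2 and limma called 11 and 23 of the 55, so its calls are given as a count only.

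Genes that act with these families were taken from 3 lists. These were for collagen processing (12 of 22 genes tested), for partners in the matrix (17 of 22) and for integrin adaptors and integrin-associated membrane proteins (19 of 24). FN1, the fibronectin bound by ITGA5 and ITGB1, was higher in ICM than in M and TE, higher in HYPO than in EPI at both stages, higher in LB HYPO than in ICM and higher in ICM than in LB EPI. Its log2 fold change, EPI minus HYPO, was -6.25 (SE 0.56, adjusted p = 0.000196) at LB and -7.16 (SE 0.38, adjusted p = 1.1e-05) at Sph. Among the matrix partners, 2 of 17 were higher in LB HYPO than in LB EPI (FN1 and FBLN2), with 1.03% of all genes, and 3 of 17 in Sph HYPO than in Sph EPI (NID2, FN1 and FBLN2), with 0.571% of all genes, and none was called higher in EPI. NID2, which links laminin to collagen IV, was also higher in LB HYPO than in ICM, with NID1, SPARC, FN1 and FBLN2, which made 5 of 17 (1.16% of all genes). NID1 was also higher in ICM than in M, with FN1 (2 of 17, and 1.48% of all genes). The paper names FN1 and NID2 among its hypoblast genes, so their calls between EPI and HYPO may not be independent of the labels. On the list of integrin adaptors and associated membrane proteins, CD9, a membrane protein and not an adaptor, was higher in ICM than in M (1 of 19, 1.48% of all genes). It was also higher in ICM than in LB EPI (1 of 19, 1.12%). CD9 and CD151, likewise a membrane protein, were higher in LB HYPO than in LB EPI (2 of 19, 1.03%). VCL and ILK were higher in LB HYPO than in ICM (2 of 19, 1.16%). Of the collagen-processing genes, PLOD1 was higher in LB HYPO than in LB EPI (1.03% of all genes), and PLOD2 was higher in LB EPI than in ICM (1.79%) and higher in Sph HYPO than in LB HYPO (0.115%), each 1 of 12.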

How the data were processed

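Single cells of pig embryos were sequenced with Smart-seq2 (full-length cDNA of polyadenylated RNA, Nextera XT libraries). With HISAT2 (version 2.1.0) and HTSeq, as the submitters' processing notes name them, the authors counted reads per Ensembl gene and per 16 entries of their own, and deposited 1 table of counts and 1 of TPM over 220 cells. No read in the counts was weighted or normalised, and TPM values are as the authors computed them. The authors trimmed the reads, aligned them to the pig genome, kept uniquely mapped reads and removed cells of low depth, high mitochondrial share or outlying position. The alignment was directional, but the strand setting of the counting is not given in the sources used here, so a gene and an overlapping antisense gene may share reads. Neither table marks molecules, so intervals and limits cover counting error only.

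Symbols were matched to 11437 IDs of a names table, which carried 75.3% of the counts. The entries were chosen by symbol, over 1 TPM in at least 3 cells, and the genes, lists and tests were chosen with earlier results of these data known. Items that fit the names but are not reported here include 1 of the 55, which is counted in the totals only. The genes named are those called, the 3 of lowest p in each direction of a comparison, the 5 of highest mean TPM, and COL4A2, LAMB1, LAMB2, LAMC1, ITGA2, ITGA4, ITGA5, ITGA6, ITGAV, ITGB1, ITGB4, MMP2, MMP14 and TIMP1. Others were named after their values were seen, to account for every gene.

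Counts were summed per embryo, read from the letters of the cell name, and cell type. One morula cell without such letters was left out. The embryos are the replicates, although nothing in the labels says how many litters they came from, and p-values measure the spread between these sums. All 220 profiles were distinct, with 0 identical cells and a highest correlation of 0.818 between any pair. Sums were compared with the quasi-likelihood F test of edgeR 4.0.16 (TMM scaling, sums of the groups compared only, with the Benjamini-Hochberg adjustment over all 14721 genes and a threshold of 0.05), after a check on simulated data. The standard error is the log2 fold change divided by the root of F. Where a group had no count, the fold is a lower bound against 3 counts over that group, and where it had 1 to 3 counts, the ratio has an exact interval. Shares of cells have exact Clopper-Pearson intervals, and a share of 0 is given the limit set by 3 counts. As alternatives the sums were compared with DESeq2 1.42.0, without TMM or without the filter, with sums of at least 2 cells, pools 1 to 4 and 5 to 8 apart, the embryo as a replicate block, all 7 cell types in 1 model, and each sum left out in turn (those of the LB and Sph groups for the test over 7 cell types). A pool here is a group of cells that share a prefix in the sample title. The pool numbers were given here, and the titles do not say what the prefix stands for. Added after the data were seen were limma 3.58.1 on log2(CPM + 1) and leaving out the M and ICM sums in the comparisons of M with ICM and of ICM with LB EPI and LB HYPO.

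Embryos that gave both cell types pair the sums of ICM and TE (7 embryos) and of EPI and HYPO (3 at each stage). The median correlation of the deviations of same-embryo sums over 8942 genes was 0.0484, 0.0205 and 0.0658, against -0.00712, -0.0175 and -0.0368 for other pairs. Python 3.11.15, SciPy 1.17.1, pandas 2.3.3 and matplotlib 3.10.9 were used with R 4.3.3.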

Additional observations from a re-analysis of the deposited data

Results flagged for a closer look

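In 9 genes, each group of 4 to 10 embryo sums was searched for a highest or lowest sum that lay far from the others, and 14 such sums were found in 49 groups. Chance gives about 1 in 20 groups, and groups in which most sums are at 0 meet the criterion with a single small count.

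Of the sums that were lowest, LAMB1 was at 0 CPM in the ICM sum of embryo AI, where the other 6 ICM sums had 29.4 to 349.5 CPM, and at 0 CPM in the LB EPI sum of embryo AN, where the others had 94.96 to 159.5 CPM. The same LB EPI sum was at 0 CPM for LAMC3, with 9.05 to 13.3 CPM in the other 3. ITGAV was at 0 CPM in the LB HYPO sum of embryo AL, a single cell, with 126 to 299 CPM in the other 4. Of the sums that were highest, COL11A1 had 191 CPM in the Sph EPI sum of embryo E, with 30.9 to 35.6 CPM in the other 3, and MMP2 had 123 CPM in the single TE cell of embryo E6-ER, with at most 2.61 CPM in the other 9 sums.

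The remaining sums stood out at low levels. In M they were COL4A2 at 5.12 CPM and MMP2 at 1.09 CPM in embryo W, and LAMC1 at 7.24 CPM and COL11A1 at 0.813 CPM in embryo U. LAMC3 had 0.187 CPM in the TE sum of embryo AI and 0.476 CPM in the LB HYPO sum of embryo AO, which also held MMP2 at 1.63 CPM. COL11A1 had 1.35 CPM in the LB EPI sum of embryo AP and 0 in the other 3.

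Among the 16 entries added by the authors, which the comparisons of the 55 genes did not use, the LAMA1 entry had a median of 18.9 CPM in LB HYPO and 0 in ICM, and the ITGB3 entry had a median of 3.0 CPM in TE and 2.76 CPM in ICM. The causes of these values were not tested.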

How the results depend on the processing

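Counts of called genes among the 55 depended on the model. With DESeq2 they were 5 (ICM against TE), 14 (LB EPI against HYPO), 14 (Sph EPI against HYPO), 6 (ICM against LB EPI), 9 (ICM against LB HYPO), 4 (LB EPI against Sph EPI), 1 (LB HYPO against Sph HYPO), 2 (change of EPI minus HYPO between stages) and 11 (any difference). With limma they were 1, 5, 6, 4, 5, 1, 0, 1 and 23 in the same order. With all 7 cell types in 1 model they were 7 (ICM against TE), 0 (LB), 0 (Sph) and 3 (ICM against LB EPI), and with the embryo as replicate block 0 at LB and 0 at Sph, while ICM against TE and the change between stages stayed at 0. The block could not be fitted to the test of any difference. In pools 1 to 4 the counts were 0 (LB), 1 (Sph) and 1 (M against ICM), and in pools 5 to 8 they were 1, 1 and 1, with 25 for any difference. Leaving out 1 sum gave 0 to 1 (ICM against TE), 1 to 3 (LB), 0 to 4 (Sph), 2 to 4 (M against ICM), 3 to 6 (ICM against LB HYPO), 0 to 1 (LB HYPO against Sph HYPO) and 37 to 40 (any difference). No TMM, no filter, sums of at least 2 cells and the removal of 2 cells of less certain embryo kept each of these counts within 1.5 times. The causes were not tested.

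Of 1648 values of single genes under these alternatives, 1494 kept their direction and side of the threshold, 77 lost a call, 75 gained one and 2 changed sign, ITGA10 between ICM and LB EPI, at 0.068 without the LB EPI sum of embryo AO, and LAMB2 between M and ICM, at 0.76 without the ICM sum of embryo AA. Of the calls named in the report, ITGA5 between M and ICM and COL4A2 between ICM and LB HYPO were kept under the 24 and 21 alternatives run for them. Of 42 shares of cells, 39 stayed within their intervals with over 0 TPM as the limit and 40 with over 5 TPM. ITGA5 reached 14.9% of M cells at over 0 TPM. With 3 to 5 sums in the late groups and single cells among them, a difference that missed the threshold is not shown to be absent.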
